A study of Caenorhabditis elegans with 2 samples.

Results

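The genes described here encode the enzymes of glycolysis and of the tricarboxylic acid (TCA) cycle of the nematode Caenorhabditis elegans, with a pair of phosphoenolpyruvate carboxykinase (PEPCK) genes of gluconeogenesis. They were taken from a list of 35 symbols, and all 35 matched a protein-coding gene of the WBcel235 annotation, out of 19973 such genes. The list holds 18 glycolysis genes, 15 TCA cycle genes and 2 PEPCK genes. Each was scored for binding of LIN-15B by chromatin immunoprecipitation and sequencing in whole L3 larvae of mixed sex. The animals were of strain OP184, with the genotype unc-119(tm4063) III; wgIs184, and the profiled protein was eGFP-lin-15B, from an insertion whose promoter the labels do not name. There were 2 biological replicates of this 1 group and no other genotype, stage or treatment. Whole animals mix all cell types, so binding in few cells and weak binding in many cannot be told apart.

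Glycolysis splits glucose into pyruvate in the cytosol. Pyruvate then enters the mitochondrion, where the TCA cycle oxidises it and passes electrons to the respiratory chain, and PEPCK starts the return path towards glucose. Several steps are encoded by paralogues in C. elegans, some of which differ in the compartment their protein works in. LIN-15B is a THAP domain protein of the synMuv B class, known for repressing germline genes in somatic tissue.

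A gene was counted as bound where the summit of a peak that passed the irreproducible discovery rate (IDR) threshold of the authors lay from 500 bp upstream to 200 bp downstream of an annotated 5' end. The IDR list held 3331 peaks, which were also the 3331 highest of the 30000 pooled peaks, with a lowest signal of 22.7. Signals are the deposited values of the authors on a scale that is not given. The lists of the replicates were called separately, with 24760 and 27552 entries, so ranks are given beside signals. Read depth is unknown, and the small number of genes limits the precision of each share. All intervals are exact 95% Clopper-Pearson intervals and cover counting error only. No test was run on the list, since its genes were chosen with earlier results of these data known.

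LIN-15B was bound at 19 of the 35 genes (54.3%, interval 36.6 to 71.2), where 13.4% of all protein-coding genes were bound. The TCA cycle genes held 11 of these 19, so that 11 of 15 were bound (73.3%, interval 44.9 to 92.2). Of the glycolysis genes 7 of 18 were bound (38.9%, interval 17.3 to 64.3), and of the PEPCK genes 1 of 2. The intervals of glycolysis and the TCA cycle overlap and the difference between them was not tested. The order of the pathways also depended on the window: with a reach of 200 bp upstream it turned, to 4 of 15 TCA cycle genes (26.7%) and 6 of 18 glycolysis genes (33.3%). Counted by reaction, a grouping made after the values were seen, all 8 steps of the TCA cycle had at least 1 bound gene, against 5 of the 10 steps of glycolysis. At 200 bp it was 3 of 8 and 5 of 10. The aconitase step rested on aco-2 alone, whose peak is shared, and with each peak given to its nearest gene 7 of the 8 steps had a bound gene. The glycolysis steps without one were glucose-6-phosphate isomerase, phosphofructokinase, triosephosphate isomerase, glyceraldehyde-3-phosphate dehydrogenase and pyruvate kinase.

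**Figure D1:**
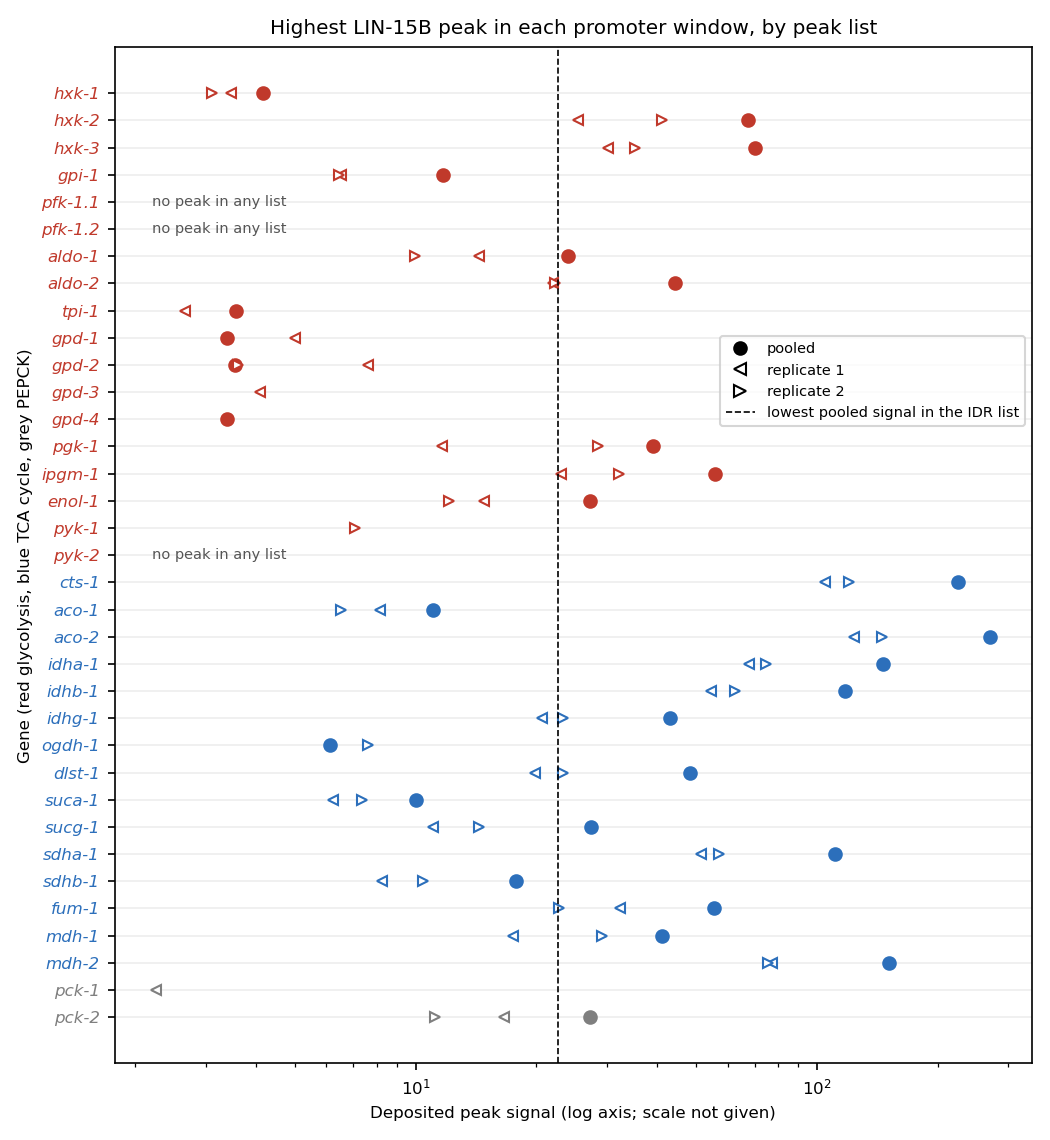
Signal of the highest peak in the promoter window of each of the 35 genes (log axis, deposited units), with filled circles for the pooled list and open triangles for the replicates, which were called on their own scales. The dashed line is the lowest pooled signal of the IDR list, 22.7, and applies to the circles alone. The 6 circles above 100 are all TCA cycle genes, and 3 glycolysis genes have no peak in any list.

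The TCA cycle also held the stronger peaks. The median signal of its 11 bound genes was 110.8, with a range of 27.4 to 270.7, against 44.4 for the 7 bound glycolysis genes, whose range was 24.0 to 70.2. Over all 2683 bound genes the median was 70.5. Of the 11 TCA cycle genes 6 lay above that median, and of the 7 glycolysis genes 0 did.

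The highest signal was at aco-2, the mitochondrial aconitase that turns citrate into isocitrate. Its pooled signal was 270.7, at rank 187, and the replicates gave 123.6 (rank 192) and 145.2 (rank 188). It stood nearly level in both replicates. The peak (chrIII:7973256-7973501, ce11) is shared with a neighbour. Its summit stood at -334 bp from the aco-2 5' end but 3 bp inside the divergent gene eef-1B.1, which encodes a subunit of a translation elongation factor. It therefore cannot be assigned to aco-2 alone.

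Next came cts-1, the citrate synthase that opens the cycle, with a pooled signal of 225.1 (rank 259; chrIII:10216739-10216968). The replicates gave 105.1 (rank 253) and 120.6 (rank 269). Its summit stood at -231 bp, in intergenic sequence, in the window of no other gene. At mdh-2, the mitochondrial malate dehydrogenase that closes the cycle, the pooled signal was 151.7 (rank 461), with 77.4 and 75.5 in the replicates. The mdh-2 summit, at -219 bp, also lay in the window of F20H11.4, at -297 bp.

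The 3 listed genes for subunits of the NAD-dependent isocitrate dehydrogenase were all bound, at different levels. The pooled signal was 146.5 at idha-1 (replicates 67.7 and 74.9) and 117.3 at idhb-1 (54.6 and 62.6). At idhg-1 it was 43.1 (20.7 and 23.3). In each replicate the order was the same, with the first pair within a narrow range and idhg-1 at less than either. The idhb-1 summit was 20 bp downstream of an annotated 5' end, inside the transcribed sequence, while the idha-1 summit was at -251 bp. By its symbol idhg-2 is a further gene for the same subunit as idhg-1. It is not on the list, is named after its values were seen, and was not bound (10.3, rank 6461).

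Succinate dehydrogenase, which also serves the respiratory chain as complex II, was bound at the gene for its flavoprotein subunit sdha-1, with a pooled signal of 110.8 (51.6 and 57.1). The gene for its iron-sulphur subunit, sdhb-1, had a peak at -146 bp with a signal of 17.8 at rank 4019, and 8.25 and 10.4 in the replicates. This is the highest signal among the unbound genes, the nearest on that side of the IDR threshold. Its pooled -log10 q-value of 3.96 equals that of the bound genes, all of which share this value whatever their signal. In replicate 1 the value was 3.22 at sdhb-1, against 3.88 at sdha-1. The nearest on the other side of the threshold was the aldolase gene aldo-1, with a signal of 24.0 at rank 3185.

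The other bound TCA cycle genes had signals between 27.4 and 55.3. They were fum-1 (fumarase, 55.3), dlst-1 (the succinyltransferase subunit of 2-oxoglutarate dehydrogenase, 48.3), mdh-1 (cytosolic malate dehydrogenase, 41.2) and sucg-1 (the GDP-forming beta subunit of succinyl-CoA synthetase, 27.4). In the replicates fum-1 had 32.3 (rank 1217) and 22.8 (rank 2072), and mdh-1 had 17.5 (rank 2201) and 29.2 (rank 1671). These genes thus changed order between the replicates. The mdh-1 summit also moved, from -301 bp in replicate 1 to -425 bp in replicate 2, with the pooled summit at -416 bp.

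The sequences below show 101 bases centred on the pooled summit, the flank being 50 bp on each side. They are given for cts-1, mdh-2 and sdha-1 as high signals, for dlst-1 as the window with the most motifs, and for mdh-1 and idhg-1 to set beside them as weaker peaks. They were read from the RefSeq copy of WBcel235, on the strand of the gene, 5′ to 3′. Windows that reach into an annotated UTR, such as those of aco-2 and idhb-1, are not shown. Capitals mark a match on either strand to any of the motifs searched, and overlapping matches run together. The motifs were GAGAGA, a GA repeat, then GCGCGC and, as a related form, ACGCGC. The others were TTNNCGC (a loose form of the E2F core), TTTGAA (the cell cycle genes homology region element), TATAAA (the TATA box) and ACGTG (the core of the hypoxia response element).
cts-1 (chrIII:10216816-10216916, minus strand): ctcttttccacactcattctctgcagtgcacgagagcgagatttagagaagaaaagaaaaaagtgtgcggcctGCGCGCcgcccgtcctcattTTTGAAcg
mdh-2 (chrIII:6608275-6608375, minus strand): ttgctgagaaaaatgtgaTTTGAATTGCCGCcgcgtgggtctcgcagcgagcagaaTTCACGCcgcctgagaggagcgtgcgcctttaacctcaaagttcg
sdha-1 (chrX:8546183-8546283, minus strand): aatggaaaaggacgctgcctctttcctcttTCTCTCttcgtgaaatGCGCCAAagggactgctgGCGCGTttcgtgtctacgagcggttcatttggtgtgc
dlst-1 (chrV:6709167-6709267, minus strand): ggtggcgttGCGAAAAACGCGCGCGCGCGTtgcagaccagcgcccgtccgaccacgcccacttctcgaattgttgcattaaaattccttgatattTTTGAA
mdh-1 (chrV:6516892-6516992, minus strand): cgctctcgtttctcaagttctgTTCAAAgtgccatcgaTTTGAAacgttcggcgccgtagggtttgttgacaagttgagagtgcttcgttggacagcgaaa
idhg-1 (chrIII:4568680-4568780, plus strand): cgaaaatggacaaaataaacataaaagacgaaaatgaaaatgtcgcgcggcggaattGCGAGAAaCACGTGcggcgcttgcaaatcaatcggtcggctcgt

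TTTGAA stands in the windows of cts-1, mdh-2, dlst-1 and mdh-1, and TTNNCGC in those of mdh-2, sdha-1, dlst-1 and idhg-1. The idhg-1 window also holds ACGTG. Not every bound gene had a match: the windows of idha-1 (signal 146.5), sucg-1 and hxk-3, which are not printed, hold none of the motifs.

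In glycolysis the highest signals stood at the entry step. Hexokinase, which phosphorylates glucose, is encoded by 3 genes, and hxk-3 (70.2, rank 1223) and hxk-2 (67.5, rank 1286) were bound. The replicates gave 30.1 and 35.2 at hxk-3 and 25.3 and 41.0 at hxk-2. The hxk-3 summit stood at -23 bp from a 5' end. The hxk-2 summit, at -271 bp, was closer to the divergent gene cdk-9, a cyclin-dependent kinase of transcription elongation, at -146 bp. The third, hxk-1, had a peak of 4.16 at rank 22603 of the pooled list, far below the IDR threshold.

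In the lower part of glycolysis a run of 3 consecutive steps was bound. They are pgk-1, phosphoglycerate kinase (39.1), ipgm-1, the cofactor-independent phosphoglycerate mutase (55.6), and enol-1, enolase (27.2). The replicates gave 11.6 (rank 3091) and 28.5 (rank 1723) at pgk-1. At ipgm-1 they gave 23.0 (rank 1733) and 32.1 (rank 1503), and at enol-1 14.8 (rank 2549) and 12.2 (rank 3432). The pgk-1 signals differed the most among the 19 bound genes of the list, by 1.29 on the log2 scale (replicate 2 over replicate 1). Across 2668 bound genes of the genome the median was 0.26 and the SD 0.55. The enol-1 summit fell in an intron of enol-1, at -168 bp from an internal 5' end.

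Both aldolase genes, whose product cleaves fructose-1,6-bisphosphate, were bound. The signal was 44.4 at aldo-2 (replicates 22.0 and 22.3) and 24.0 at aldo-1 (14.4 and 9.97). The aldo-2 summit was 65 bp downstream of a 5' end, in untranslated exon sequence, and the aldo-1 summit was at -198 bp.

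The summit windows of aldo-1 and enol-1 show the weaker end of the bound glycolysis genes, drawn in the same way, with an ACGTG match in the first and a TTNNCGC match in the second.
aldo-1 (chrIII:13565085-13565185, minus strand): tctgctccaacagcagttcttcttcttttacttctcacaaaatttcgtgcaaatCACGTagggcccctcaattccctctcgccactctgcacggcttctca
enol-1 (chrII:8931888-8931988, plus strand): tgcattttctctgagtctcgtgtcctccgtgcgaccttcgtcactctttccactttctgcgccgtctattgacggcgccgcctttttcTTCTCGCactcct

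The 16 unbound genes were not alike. Of these, 10 had a peak in the pooled list, with signals from 3.40 to 17.8. That list was deposited as peaks and background, and 36.8% of all protein-coding genes had such an entry. Among the 35 genes 29 had one (82.9%), with 15 of 15 in the TCA cycle and 13 of 18 in glycolysis. After sdhb-1 the highest unbound signals were 11.7 at gpi-1 (glucose-6-phosphate isomerase), 11.0 at aco-1 and 10.04 at suca-1 (the ADP-forming beta subunit of succinyl-CoA synthetase). The gene for the catalytic E1 subunit of 2-oxoglutarate dehydrogenase, ogdh-1, had 6.11, with 7.61 in replicate 2 and no peak in the window in replicate 1. The gene tpi-1, for triosephosphate isomerase, had 3.56.

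A further 3 genes had no pooled peak but an entry in 1 replicate list, pyk-1 (7.07, replicate 2), gpd-3 (4.09, replicate 1) and pck-1 (2.26, replicate 1). The last 3 had no peak in any list: pfk-1.1 and pfk-1.2, which encode phosphofructokinase, the committed step of glycolysis, and pyk-2, a pyruvate kinase gene. For pfk-1.1 the nearest IDR summit of any kind was 30818 bp away. For pfk-1.2 and pyk-2 it was 4937 and 9224 bp away.

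The paralogue families fell into 3 patterns. Of 10 families of listed genes, 3 had all members bound, namely aldolase, malate dehydrogenase and isocitrate dehydrogenase. The last of these was counted without idhg-2, which is not on the list and was unbound. In 3 no member was bound, namely phosphofructokinase, glyceraldehyde-3-phosphate dehydrogenase (GAPDH) and pyruvate kinase. The other 4 were mixed, namely hexokinase, aconitase, succinyl-CoA synthetase and PEPCK. Of the 11 genes in no such family, 7 were bound.

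The widest gap within a family was at aconitase. The mitochondrial aco-2 had 270.7, with the shared peak described above, and the cytosolic aco-1, the homologue of the mammalian iron regulatory protein, had 11.0 (8.16 and 6.52 in the replicates). The replicates placed aco-1 at ranks 4187 and 6225. In the malate dehydrogenase family the signal was 151.7 at the mitochondrial mdh-2 and 41.2 at the cytosolic mdh-1, both bound. Any link with compartment was not tested. Of the NADP-dependent isocitrate dehydrogenase genes, which are not on the list, the cytosolic idh-1 was bound (68.2). The gene idh-2, named after its values were seen, was not (11.3). The coding sequences of the aconitase and malate dehydrogenase pairs were 65.7% and 61.8% identical over aligned bases.

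GAPDH was the family with the most genes and no bound member. Its pooled signals were 3.55 at gpd-2, 3.40 at gpd-1 and 3.40 at gpd-4, with none at gpd-3. In replicate 1 gpd-2 had 7.61 at rank 4456, but in replicate 2 only 3.60 at rank 14230. These genes form pairs of near copies. The coding sequences of gpd-1 and gpd-4 were 99.0% identical, with a run of 180 identical bases within their promoter windows. Those of gpd-2 and gpd-3 were 97.4% identical, with a run of 80. Between the pairs the identity was 79.6% to 80.4%, with runs of 20. How reads that align to more than 1 place were treated is not given in the sources used here, so a low signal at these genes is uncertain. In addition gpd-3 starts 101 bp after gpd-2 ends, on the same strand. It is known to be the downstream gene of an operon with mai-1 and gpd-2, so its window mostly covers gpd-2 and not a promoter of its own. The window of gpd-2 reaches into mai-1, on the same strand with a gap of 0 bp, so the same limit may apply there.

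PEPCK was bound at pck-2 alone, with a signal of 27.3 (16.6 and 11.2 in the replicates) and a summit 6 bp upstream of an internal 5' end. At pck-1 only replicate 1 had an entry, of 2.26.

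The replicates ranked the strongest genes alike and the weakest less so. All 19 bound genes had a peak in the window in both replicates, as did 2668 of the 2683 bound genes of the genome. The IDR list itself derives from both replicates, so this says little about these genes. Among the 19 genes replicate 2 was higher at 14 and replicate 1 at 5. Their median log2 ratio was 0.20, near the 0.26 of all bound genes. When the 3331 highest peaks of replicate 1 stood in for the IDR list, all 19 genes were bound, against 13.0% of all genes. With those of replicate 2 alone, 16 were bound, against 13.3% of all genes. The 3 not reached were aldo-1, enol-1 and pck-2, so that glycolysis fell to 5 of 18 and PEPCK to 0 of 2, while the TCA cycle kept 11 of 15.

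**Figure D2:**
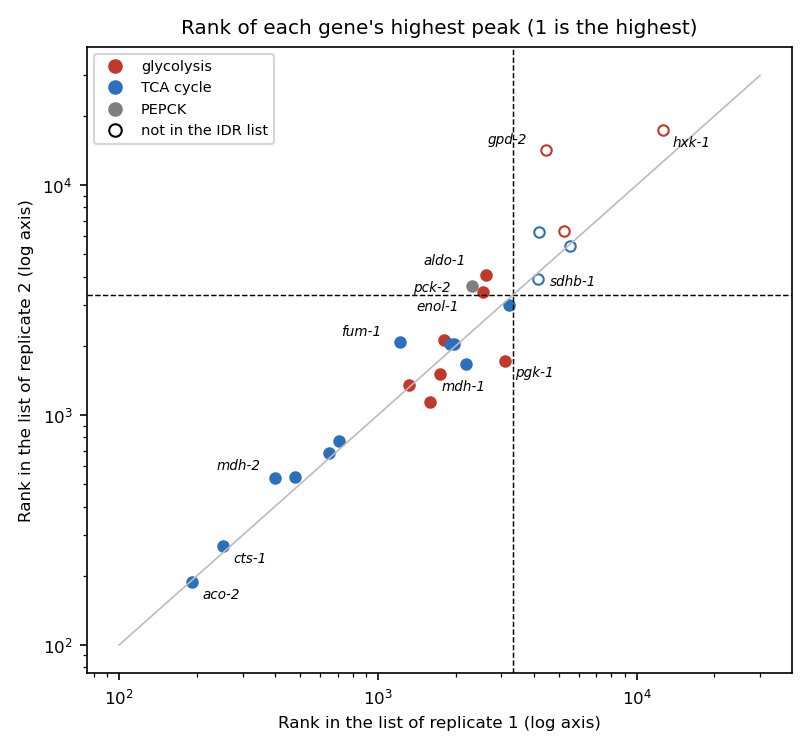
Rank of the highest peak in the promoter window in replicate 1 (x axis) and replicate 2 (y axis), both on log axes, for the 25 genes with a peak in both. Filled points are bound, dashed lines mark rank 3331 and the grey line is equality. Genes such as aco-2 and cts-1 lie on the line, and aldo-1, enol-1 and pck-2 lie above the dashed line of replicate 2.

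The summits of the TCA cycle genes stood farther upstream than those of glycolysis, and the counts followed the reach of the window. The median summit position was -219 bp for the 11 TCA cycle genes, with 7 over 200 bp upstream, and -168 bp for the 7 glycolysis genes, with 1 over 200 bp upstream. For all 2683 bound genes it was -176 bp, with 1176 over 200 bp upstream. With a window that reached 200 bp upstream, 4 of 15 TCA cycle genes (26.7%, interval 7.79 to 55.1) and 6 of 18 glycolysis genes (33.3%, interval 13.3 to 59.0) were bound, against 7.59% of all genes. The order of the pathways thus turned, with intervals that overlap. The genes lost were cts-1, aco-2, idha-1, sucg-1, sdha-1, mdh-1, mdh-2 and hxk-2, among them the 3 with the highest signals. Trans-splicing is common in this species and can place an annotated 5' end some way inside the primary transcript.

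With a reach of 1000 bp the same 7 and 11 genes were bound, while 16.2% of all genes were. At 2000 bp it was 10 of 18 and 13 of 15, against 20.1% of all genes. The 6 genes gained there were hxk-1, tpi-1, gpd-4, ogdh-1, suca-1 and pck-1. The peak gained at gpd-4 (57.4, at -1677 bp) lay in the promoter window of the divergent gene daf-19. Among the 1665 IDR peaks with the highest signal, 7 of 15 TCA cycle genes and 3 of 18 glycolysis genes (hxk-2, hxk-3 and ipgm-1) were bound, against 8.53% of all genes.

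**Figure D3:**
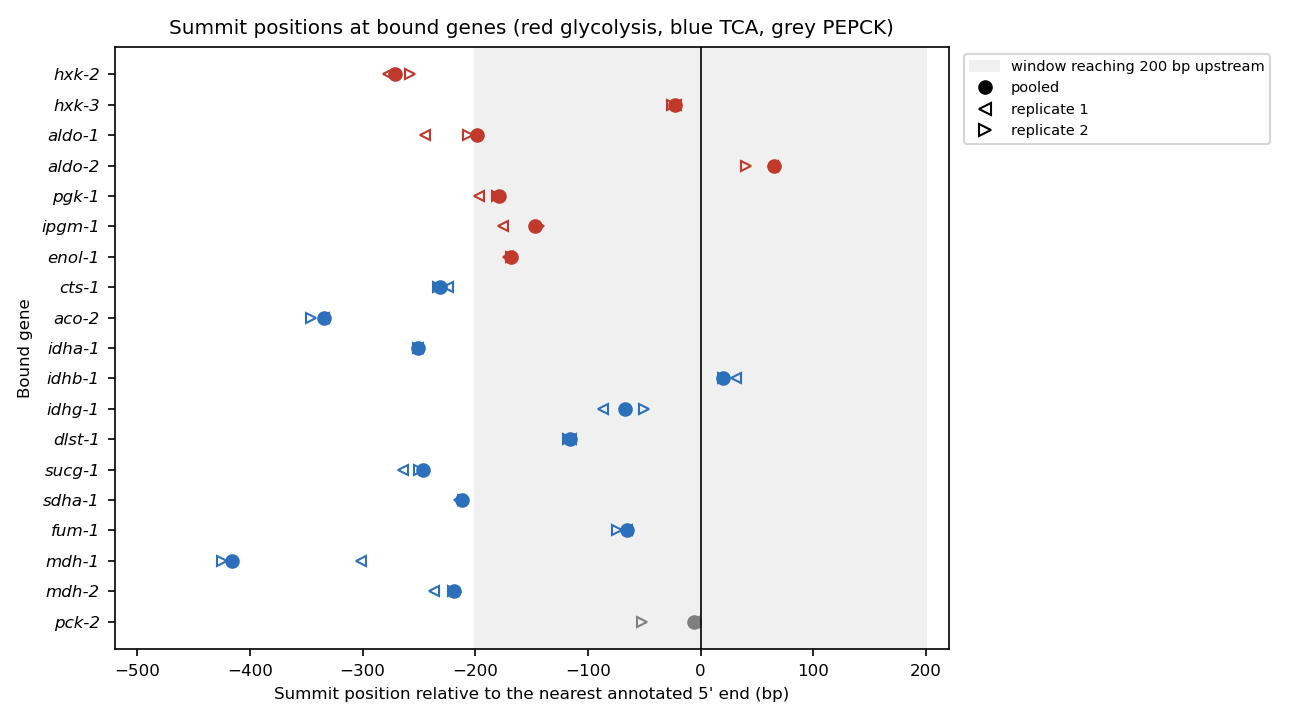
Summit position relative to the nearest annotated 5' end, in bp, at the 19 bound genes, with filled circles for the pooled list and open triangles for the replicates. Of the TCA cycle genes 7 lie to the left of the grey band, which marks the window of 200 bp to each side, and of the glycolysis genes hxk-2 does.

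**Figure D4:**
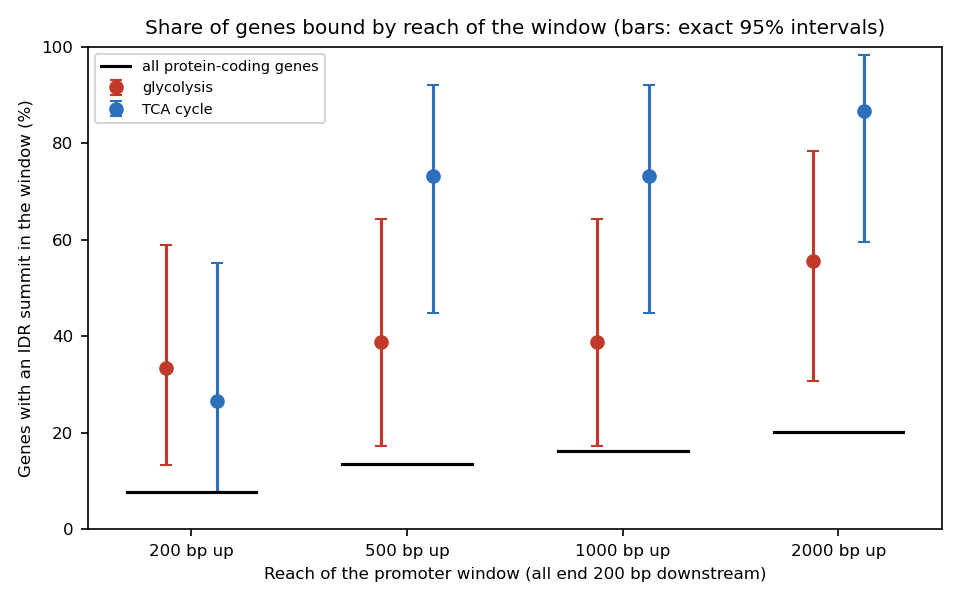
Share of glycolysis (red) and TCA cycle (blue) genes with an IDR summit in the promoter window, by how far the window reaches upstream, with exact 95% intervals and the share of all protein-coding genes as a black line. The TCA cycle share is 26.7% at 200 bp and 73.3% at 500 bp, and the glycolysis share is 33.3% and 38.9%.

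Some unbound genes had an IDR peak close by. At tpi-1 a peak of 79.0 (rank 1086) stood at -1262 bp, and at ogdh-1 one of 79.8 (rank 1070) stood at -1376 bp, each in the promoter window of no gene. At suca-1 a peak of 37.1 stood at -1070 bp and at pck-1 one of 29.3 stood at -1046 bp. A peak in an intron of hxk-1 had a signal of 23.7. Both gpd-1 and gpd-4 were followed by a peak just past their 3' end, at 242 bp (54.8) and 144 bp (75.9). Those peaks lay in the promoter windows of T09F3.4 and of wbp-11.

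A mixed set of 26 genes outside the list was scored in the same way. It holds partner subunits of these complexes and genes of neighbouring pathways, such as gluconeogenesis, the pentose phosphate pathway and the glyoxylate cycle. Of the 26 genes 9 were bound (34.6%, interval 17.2 to 55.7), against 13.4% of all genes. With a reach of 200 bp upstream it was 4 of 26, against 7.59% of all genes, and with 2000 bp 15 of 26, against 20.1%. With each peak given to its nearest gene it was 6 of 26, a setting for which the share of all genes was not computed. The highest was dld-1, with 581.6 at rank 30 and 275.3 and 306.4 in the replicates. It encodes dihydrolipoamide dehydrogenase, the E3 subunit shared by 2-oxoglutarate and pyruvate dehydrogenase. This was above every gene of the list, and its peak lay in the window of no other gene. It was followed by pdhk-2, pyruvate dehydrogenase kinase (278.9), and mev-1, the cytochrome b subunit of succinate dehydrogenase (206.8, shared with jmjd-4). The others were sucl-1, an alpha subunit of succinyl-CoA synthetase (79.6), idh-1, the cytosolic NADP-dependent isocitrate dehydrogenase (68.2), sdhd-1 (59.7, shared with ilkp-1), dlat-1 (39.0, shared with fntb-1), pdhb-1 (37.2, shared with dyf-3) and icl-1 of the glyoxylate cycle (34.1, shared with srh-2). The replicates gave 26.8 and 11.2 (rank 3654) at pdhb-1, which was not bound with replicate 2 alone. At icl-1 they gave 7.17 (rank 4725) and 28.6, and it was not bound with replicate 1 alone.

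Put together by complex, most had bound and unbound subunit genes side by side. Isocitrate dehydrogenase had 3 of 3 bound, a count that leaves out the unbound gene idhg-2. Succinate dehydrogenase had 3 of 4 (all but sdhb-1) and pyruvate dehydrogenase 3 of 4 (all but pdha-1). The gene pdha-1 had no peak in any list and is named here after its values were seen. 2-oxoglutarate dehydrogenase had 2 of 3 (all but ogdh-1) and succinyl-CoA synthetase 2 of 4. In both of the 2-oxoacid dehydrogenases the unbound gene encodes an E1 subunit, though pdhb-1, for the other E1 subunit of pyruvate dehydrogenase, was bound. These complexes were grouped after the values were seen. With each peak given to its nearest gene, pdhb-1, dlat-1 and sdhd-1 were lost to their neighbours. Pyruvate dehydrogenase then had 1 of 4 and succinate dehydrogenase 2 of 4. At 200 bp upstream pyruvate dehydrogenase and succinyl-CoA synthetase had 0 of 4 each, 2-oxoglutarate dehydrogenase had 1 of 3, and isocitrate dehydrogenase had 2 of 3.

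The summit windows were rich in G and C, as IDR summits were in general. The GC content of the 101 bases was 49.1% ± 6.19 (SD across 19 windows), with 48.2% ± 6.76 at the 7 glycolysis genes and 49.2% ± 6.18 at the 11 TCA cycle genes. All 3331 IDR summits had 47.0% ± 7.30. Windows of the same length centred at -176 bp from the 5' end had 34.3% ± 8.20 across all genes and 36.6% ± 8.91 across the 16 unbound genes.

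Motif matches were few and are given as a description. TTNNCGC was found at 9 of 19 summits (47.4%), against 29.7% of all IDR summits and 14.1% of promoter windows of that length. TTTGAA was found at 5 of 19 (26.3%), against 18.9% of IDR summits and 29.6% of promoters. By pathway it was at 5 of 11 TCA cycle summits and 0 of 7 glycolysis summits. GAGAGA was found at 3 of 19 (15.8%), against 26.9% of IDR summits and 8.03% of promoters. ACGTG was found at 3 of 19, namely aldo-1, idhg-1 and fum-1 (15.8% against 14.3% of IDR summits and 9.57% of promoters). GCGCGC was found at 3 of 19, against 10.1% of IDR summits and 1.46% of promoters. ACGCGC was found at 2 of 19, against 16.9% of IDR summits and 2.50% of promoters. TATAAA was at 0 of 19, against 3.78% of IDR summits and 12.9% of promoters. In the windows of the 16 unbound genes, which are centred on a fixed position and not on a summit, TATAAA and TTTGAA were found in 5 each, ACGCGC and TTNNCGC in 3 each, GAGAGA in 2, and GCGCGC and ACGTG in 1 each. All motifs were read on both strands, and matches of GCGCGC and ACGCGC can overlap.

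The genes were spread over all 6 chromosomes. On chromosome III 7 of 8 were bound, all but pck-1, against 21.9% of its genes. On X 2 of 7 were bound, idhb-1 and sdha-1, against 7.36% of X genes. The 5 unbound there were pfk-1.1, gpd-2, gpd-3, aco-1 and suca-1. On the autosomes 17 of 28 were bound (60.7%, against 14.4% of autosomal genes), with 9 of 11 TCA cycle genes and 7 of 15 glycolysis genes.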

How the data were processed

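Peak lists of eGFP-lin-15B in L3 larvae were used from 2 biological replicates, with the pooled and IDR lists, all in ce11. The authors called peaks in each replicate and in the pooled alignments, and then applied an IDR threshold, per the text records deposited with the lists. The caller and its threshold, the aligner and the versions were not given in the sources used here. Both the signal of a peak and its -log10 q-value are deposited values of the authors. Summits are start plus offset. In the IDR list 64.6% of peaks are 310 bp wide, with the summit in the middle of the interval.

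Positions are 1-based. Genes and 5' ends came from Ensembl release 115 on WBcel235, the same assembly as ce11, and sequence from the RefSeq copy. No peak ended past a chromosome end. The highest peak whose summit lay in any promoter window of a gene gave its signal. Coding identity used the longest coding sequence, aligned globally. The window rule was tested on simulated data. Members, lists and motifs were chosen with earlier results of these data known, all members could be named, and no statistical test was run. The 5 complexes and 18 reaction steps were grouped after the values were seen. Alternatives were windows of 200, 1000 and 2000 bp upstream, the 1665 highest peaks, peak intervals, each replicate alone, 1 5' end per gene and the nearest gene. Python 3.11.15, numpy 2.4.6, scipy 1.17.1, biopython 1.88 and matplotlib 3.10.9 were used.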

Additional observations from a re-analysis of the deposited data

How the results depend on the processing

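The counts of bound genes (7 glycolysis, 11 TCA cycle, 1 PEPCK and 19 in all) depended most on the window and on the strength of the peaks. With a reach of 200 bp upstream the TCA cycle count was 4 and the total 11. With the 1665 highest peaks the counts were 3 for glycolysis, 7 for the TCA cycle, 0 for PEPCK and 10 in all. With a reach of 2000 bp the PEPCK count was 2. Leaving out 1 replicate gave 5 to 7 for glycolysis, 11 for the TCA cycle, 0 to 1 for PEPCK and 16 to 19 in all, the lower values being those without replicate 1. The other settings, with a reach of 1000 bp, peak intervals, the most upstream 5' end only and the nearest gene only, kept each of these 4 counts within 1.5 times. In the last of these hxk-2 and aco-2 were lost to their neighbours, and with the most upstream 5' end only aldo-2 and enol-1 were lost. Pooled signals moved by over 0.39 on the log2 scale, the SD of the replicate log2 ratios of all bound genes divided by the square root of 2, at 2 of 29 genes with peak intervals (gpd-1 and gpd-2) and at 3 of 29 with 1000 bp (hxk-1 as well). Over the 26 other pathway genes, the alternatives were added after seeing the data. Their count of 9 was 4 at 200 bp (7.59% of all genes) and 15 at 2000 bp (20.1% of all genes). It was 8 without replicate 1, where pdhb-1 was lost, and 9 without replicate 2, where another gene took the place of icl-1. In the other settings it was 6 to 12. No paired analysis was possible because there is 1 group. Depth is unknown, so an unbound gene is one with no IDR summit in its window, not one shown to lack binding.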
